A study of Mus musculus with 69 samples.

Results

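The genes described here are 10 mouse genes of the unfolded protein and amino acid stress responses. They comprise the endoplasmic reticulum (ER) chaperones Hspa5, Hsp90b1 and Dnajb9, the ER membrane protein Herpud1, the transcription factors Xbp1, Atf4 and Ddit3, and Trib3, Chac1 and Asns, which are known targets of ATF4. They were taken by gene symbol, with earlier results of these data known, and are 10 of the 24411 genes counted in 69 RNA-sequencing libraries of mouse kidney. All 10 entered the tests, which covered the 21175 genes with 2 or more counts in all libraries together, and the lowest count of any of the 10 in any library was 17, for Trib3.

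Every mouse carried a Cre-dependent allele of uracil phosphoribosyltransferase (genotype Hoxb7Cre;UPRTf/+ or Atp6b1v1Cre;UPRTf/+, the latter called Atp6v1b1Cre here) and was given 4-thiouracil (430 mg/kg) 4 hours before dissection of the kidneys. Cells that hold the enzyme put the thio base into the RNA they make in that time, and this RNA was biotinylated, pulled down and sequenced. Hoxb7Cre acts in the collecting duct. Atp6v1b1Cre acts mainly in its intercalated cells and in cells with markers of both collecting duct cell types, and it also marks a few scattered interstitial cells. The control pulldowns were 10 Hoxb7Cre libraries (4 males and 6 females) and 11 Atp6v1b1Cre libraries (7 males and 4 females). For ischemia, both renal pedicles were clamped for 10 minutes under anesthesia 24 hours before labeling, which gave 7 Hoxb7Cre libraries (4 males and 3 females) and 6 Atp6v1b1Cre libraries (3 males and 3 females). For volume depletion, food and water were restricted for 72 hours, which gave 7 Hoxb7Cre libraries (3 males and 4 females) and 7 Atp6v1b1Cre libraries (4 males and 3 females). Total kidney RNA that was not pulled down came from 21 control samples of both genotypes (11 males and 10 females), also after 4-thiouracil. The mice were 5.5 months old, except 2 female Hoxb7Cre and 3 male Atp6v1b1Cre controls of 3 months and their total RNA. The labels number the samples but do not say which mouse each came from, so p-values measure the spread between these samples.

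The ER folds secreted and membrane proteins. When unfolded protein builds up there, the sensor IRE1 splices Xbp1 mRNA, ATF6 is cut to release a transcription factor, and PERK phosphorylates a translation initiation factor. GCN2, which senses a shortage of amino acids, phosphorylates the same factor. Translation then slows in general while that of Atf4 rises. In kidney tubules these responses are known from ischemia, toxins and nutrient shortage. Counts per gene show neither the splicing of Xbp1 nor the translation of Atf4.

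The libraries held 12618062 to 30305464 counted reads (median 20868430), and levels are given as CPM, counts brought to a common library size after scaling by the trimmed mean of M values (TMM). Injuries were compared in the 22 male pulldowns of 5.5 months (14237156 to 29051810 reads) with edgeR's quasi-likelihood test. A gene is said to pass at an adjusted p under 0.05 over all 21175 genes, fold changes are on the log2 scale with their standard error (SE), and the percentage of all genes tested that passed stands beside the first count of each comparison. Against total RNA, 8 of 10 collecting duct and intercalated cell markers were higher and 7 of 8 proximal tubule markers lower in Hoxb7Cre control pulldowns, and 6 of 10 and 8 of 8 in Atp6v1b1Cre pulldowns. In the controls, the summed proximal markers stood at 2284 to 5068 CPM (Hoxb7Cre) and 2048 to 5275 CPM (Atp6v1b1Cre), against 12751 to 22393 CPM in total RNA. The library numbers in the labels fall into 3 runs, called A, B and C here, and the labels do not say what they stand for. All male Hoxb7Cre ischemia and volume depletion libraries belong to run A, and each other male group spans runs A and B. Female Hoxb7Cre volume depletion replicates 1, 2 and 3 stood apart. Cyp27b1 was at 11.0, 20.3 and 17.2 CPM there, against 93.3 CPM in female replicate 5 and 97.3 to 186 CPM in the males of that group. Of the 3478 genes that passed with at least a 2-fold change in those males, 21.7%, 57.9% and 29.2% moved the same way from the female control mean in these 3 libraries, against 89.5% in replicate 5.

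In GENCODE M21 (GRCm38), the protein-coding genes lie at chr2:34771970-34777547 (Hspa5, plus strand), chr10:86690209-86705509 (Hsp90b1, minus strand), chr12:44205559-44210326 (Dnajb9, minus strand), chr8:94386438-94395377 (Herpud1, plus strand), chr11:5520659-5525893 (Xbp1, plus strand), chr15:80255184-80257541 (Atf4, plus strand), chr10:127290774-127296288 (Ddit3, plus strand), chr2:152337422-152344032 (Trib3, minus strand), chr2:119351229-119354381 (Chac1, plus strand) and chr6:7675169-7693254 (Asns, minus strand). The count table gives symbols only, and its reads were counted over exons of each gene. On the opposite strand Hsp90b1 overlaps 1810014B01Rik by 4598 bp and Ddit3 overlaps Mars by 68 bp. HTSeq was run with default settings, but whether the library kit marked strand is not given in the sources used here, so reads of these pairs may be mixed.

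Promoter stretches are shown for the 5 genes with a match before the start to response elements through which ATF6, XBP1 and ATF4 are known to act. All 10 matched a RefSeq window of 250 bases before to 50 bases after the start (GRCm38.p6, both strands searched). The ER stress element ERSE, CCAAT and CCACG 9 bases apart, was in the windows of Hspa5 and Hsp90b1, and in 0.119% of all 32851 windows. ERSE-II, ATTGG and CCACG 1 base apart, was in that of Herpud1 and in 0.0365% of windows. The core TGACGTGG of the unfolded protein response element was in none of the 10 (0.676% of windows), nor was TGATGNAAT, the composite element that ATF4 binds with C/EBP factors (0.965%). A relaxed form with any last base, TGATGNAAN, was chosen after the sequences were seen, and stood in the windows of Herpud1, Trib3, Chac1 and Asns and in 3.95% of all windows. The stretches below hold 20 bases to each side, and fewer where they lie inside the GENCODE gene model, with matches in capitals: Hspa5 at chr2:34772020-34772048, plus strand, Hsp90b1 at chr10:86705513-86705676, minus strand, Herpud1 at chr8:94386296-94386407, plus strand, Chac1 at chr2:119351028-119351076, plus strand, and Asns at chr6:7693214-7693242, minus strand. A match describes letters and is not a measured binding site.
Hspa5: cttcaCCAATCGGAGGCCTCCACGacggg
Hsp90b1: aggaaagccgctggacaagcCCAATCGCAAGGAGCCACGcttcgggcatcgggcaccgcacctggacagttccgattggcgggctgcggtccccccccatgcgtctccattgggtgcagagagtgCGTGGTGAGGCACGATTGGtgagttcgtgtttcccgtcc
Herpud1: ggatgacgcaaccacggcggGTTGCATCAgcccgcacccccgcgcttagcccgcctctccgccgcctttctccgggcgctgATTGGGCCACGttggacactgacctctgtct
Chac1: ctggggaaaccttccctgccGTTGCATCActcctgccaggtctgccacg
Asns: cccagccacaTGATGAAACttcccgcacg
In Hspa5 the ERSE began 65 bases before the start, and Hsp90b1 held 2 of them, at 212 bases on the gene's strand and a nearer one on the other strand. Herpud1 held its ERSE-II 52 bases and the relaxed composite 113 bases before the start. The relaxed composite began 23 bases before the start of Asns and 194 bases before that of Chac1. In Trib3 it began 14 bases after the start, inside the transcript, and is not shown.

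In control kidneys, Herpud1 had the highest CPM per kilobase of the 10 genes and Trib3 the lowest in every source. The authors write that tagging may favor uracil-rich RNA, which might affect comparisons between genes. Uracil content was not corrected for here, so ranks in the pulldowns describe labeled RNA as captured. Per kilobase of merged exons, Herpud1, which helps to clear misfolded protein from the ER, stood at 431 ± 108.97 CPM in Hoxb7Cre pulldowns (SD, n = 10), 521 ± 108.43 CPM in those of Atp6v1b1Cre (SD, n = 11) and 492 ± 68.8 CPM in total RNA (SD, n = 21). Hspa5 followed at 147 ± 17.9, 133 ± 19.5 and 188 ± 33.6 CPM per kilobase. Dnajb9 came next in the pulldowns, at 118 ± 26.7 and 122 ± 28.8 and its SD range overlapped that of Hspa5 in both. Atf4 was at 96.2 ± 40.9 and 92.8 ± 28.4 CPM per kilobase. Xbp1 and Hsp90b1 lay within 1 SD of each other, at 65.8 ± 14.1 and 63.1 ± 12.6 in Hoxb7Cre and 56.3 ± 9.99 and 57.5 ± 9.68 in Atp6v1b1Cre pulldowns. Ddit3, Asns and Chac1 were between 5.95 and 14.7 in the pulldowns, with overlapping SD ranges, and Trib3 was at 2.29 ± 1.40 and 3.08 ± 1.92.

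Against total RNA, the chaperones split. Hsp90b1, the ER form of HSP90, was lower in both pulldowns without overlap: 199 (lowest), 251 (median) and 380.4 (highest) CPM in Hoxb7Cre, 178 (lowest), 218 (median) and 313 (highest) CPM in Atp6v1b1Cre and 559.9 (lowest), 674 (median) and 952 (highest) CPM in total RNA. The change was -1.46 ± 0.10 (log2, adjusted p = 2.26e-17) for Hoxb7Cre and -1.59 ± 0.10 (adjusted p = 3.99e-19) for Atp6v1b1Cre. Dnajb9, a co-chaperone of Hspa5, went the other way, with 182 (lowest), 326 (median) and 381 (highest) CPM, 239.9 (lowest), 290.4 (median) and 496 (highest) CPM and 134 (lowest), 156 (median) and 210.4 (highest) CPM in the same order, and the Atp6v1b1Cre and total ranges did not overlap. Its change was 0.90 ± 0.083 (adjusted p = 2.5e-13) and 1.02 ± 0.080 (adjusted p = 1.41e-15). Asns, which makes asparagine, was also higher in both (0.59 ± 0.13 and 0.95 ± 0.13). Hspa5 was lower (-0.33 and -0.45) and Xbp1 higher (0.39 and 0.20) in both, and Trib3 (0.80) and Chac1 (0.64) were higher in Atp6v1b1Cre. Thus 3 of 10 were higher and 2 lower in Hoxb7Cre, where 35.6% and 31.1% of all genes tested were, and 5 higher and 2 lower in Atp6v1b1Cre, where 34.4% and 29.4% were. The median over all genes tested was 0.11 in both comparisons, so Xbp1 in Atp6v1b1Cre lay little above it. Pulldown and total RNA differ in cells, in the age of the RNA and in capture, which the authors write may favor uracil-rich RNA. These cannot be told apart.

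**Figure D1:**
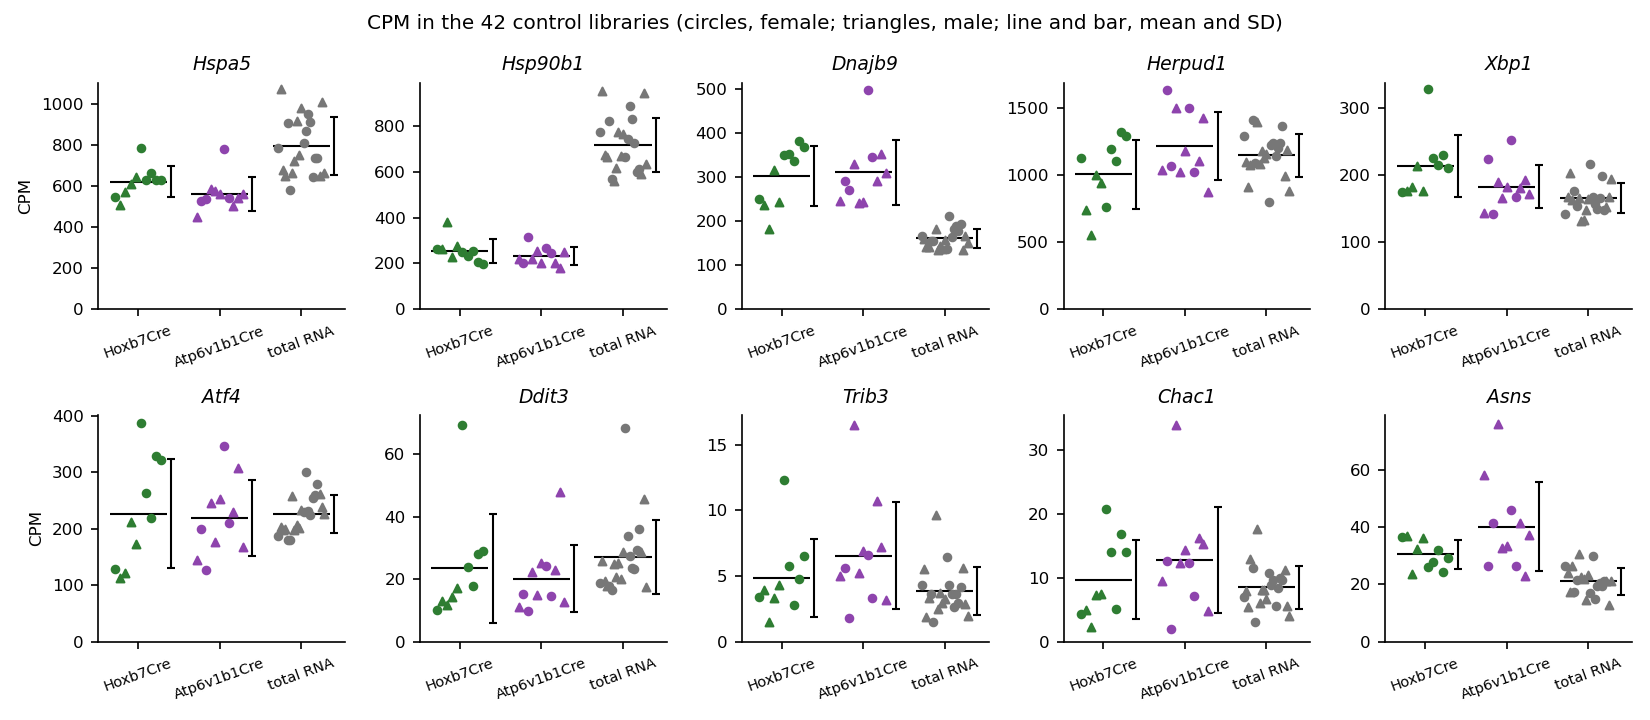
CPM of the 10 genes (linear axis from 0) in the 42 control libraries, by Hoxb7Cre pulldown, Atp6v1b1Cre pulldown and total kidney RNA, with circles for females, triangles for males, and a line and bar for the mean and SD. Hsp90b1 in the pulldowns lies below every total RNA library, and Dnajb9 lies mostly above.

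In a wider list of 19 ER chaperones and folding enzymes, 14 were lower and 2 higher in Hoxb7Cre pulldowns (median -1.02) and 15 lower and 2 higher in Atp6v1b1Cre (median -1.06), against 31.1% and 29.4% of all genes tested that were lower. The prolyl isomerases Fkbp2 (-3.62) and Ppib (-2.70) and the disulfide isomerase Pdia3 (-2.12) had the lowest values in Hoxb7Cre. Of the stress sensors and phosphatase subunits, 11 of 14 were higher in Hoxb7Cre and 9 in Atp6v1b1Cre, against 35.6% and 34.4%, among them Eif2ak4 (GCN2; 1.05 and 1.03) and Ppp1r15b (1.00 and 1.02), which directs dephosphorylation of the initiation factor. Between the drivers, 0 of the 10 genes passed in controls with edgeR, where 5.73% of all genes tested were higher and 4.20% lower in Atp6v1b1Cre. Herpud1 came nearest (log2 0.34 ± 0.12, adjusted p = 0.0523), it passed with DESeq2, and Herpud1 and Asns were the 2 genes with an unadjusted p under 0.05. In males alone, Herpud1 and Chac1 passed. Macrophage markers were higher in Atp6v1b1Cre than in Hoxb7Cre control pulldowns for 5 of 6 genes.

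After volume depletion, 9 of the 10 genes rose in male Hoxb7Cre pulldowns (3 libraries against 4 controls). Of all genes tested, 17.9% were higher and 17.6% lower. Trib3 and Chac1 rose most, 19.9-fold and 18.2-fold. Without depleted replicate 7, the log2 changes were 3.49 for Trib3 and 3.70 for Chac1, against 4.32 and 4.19 with it. The median log2 change of the 10 genes was 1.37, against 0 over all genes tested. In bulk libraries, a change in the number of cells of a type and a change in RNA per cell cannot be told apart.

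Hspa5, or BiP, binds unfolded protein in the ER lumen and holds the sensors inactive. It was at 509, 570.1, 609 and 643 CPM in control replicates 2 to 5 and 698, 1151 and 1318 CPM in depleted replicates 4, 6 and 7, the order kept below. Every depleted library lay above every control, a rise of log2 0.86 ± 0.19 (SE), 1.82-fold, adjusted p = 0.001. Hsp90b1 was at 261, 380.4, 227 and 276 CPM in the controls and 183, 255 and 302 CPM after volume depletion. These ranges overlapped and it did not pass (-0.21 ± 0.19, interval of 1.96 SE -0.57 to 0.16). Dnajb9 was at 237, 182, 316 and 243 CPM in the controls and 361, 312 and 358 CPM after volume depletion. The lowest depleted library fell just under the highest control, and the rise was log2 0.50 ± 0.18 (SE), 1.41-fold, adjusted p = 0.0361. It did not pass without control replicate 2, 3 or 5, or without depleted replicate 4 or 7.

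Herpud1 rose from 737, 556, 1002 and 944 CPM to 1896, 2255 and 2380.2 CPM. All depleted libraries were well above the highest control, with log2 1.43 ± 0.21 (SE), 2.69-fold, adjusted p = 1.51e-05. Among the transcription factors, Xbp1, the target of IRE1, was at 176, 182, 214 and 176 CPM in the controls and 239, 316 and 358 CPM after volume depletion. The groups did not overlap and the rise was log2 0.70 ± 0.19 (SE), 1.63-fold, adjusted p = 0.00462. Atf4 was at 112, 121, 212 and 173 CPM in the controls and 383, 426 and 587 CPM after volume depletion. Its groups did not overlap either, and the rise was log2 1.59 ± 0.26 (SE), 3.02-fold, adjusted p = 5.09e-05. Ddit3 (CHOP), a partner of C/EBP factors that is linked to cell death in prolonged stress, was at 12.9, 11.6, 14.4 and 17.2 CPM in the controls and 52.1, 75.8 and 143 CPM after volume depletion. The lowest depleted library was far above the highest control, with log2 2.69 ± 0.35 (SE), 6.44-fold, adjusted p = 4.97e-06.

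Of the targets of ATF4, Trib3 and Chac1 rose the furthest of the 10 genes and Asns less than Ddit3, Atf4 and Herpud1. Trib3, a pseudokinase that restrains AKT and ATF4, was at 3.96, 1.50, 3.36 and 4.31 CPM in the controls and 38.4, 35.4 and 123 CPM after volume depletion. Depleted replicate 7 was the highest and the other 2 were close together, all far above the controls, with log2 4.32 ± 0.53 (SE), 19.9-fold, adjusted p = 2.12e-06. Chac1, which breaks down glutathione, was at 5.01, 2.23, 7.36 and 7.54 CPM in the controls and 97.9, 46.0 and 158 CPM after volume depletion. The depleted libraries again lay apart from the controls, with log2 4.19 ± 0.49 (SE), 18.2-fold, adjusted p = 1.44e-06. Asns was at 37.1, 23.7, 32.4 and 36.2 CPM in the controls and 64.7, 47.7 and 126 CPM after volume depletion. The groups did not overlap and the rise was log2 1.30 ± 0.29 (SE), 2.47-fold, adjusted p = 0.00128. Replicate 7 was the highest depleted library for all of these except Dnajb9. Within library run A alone (3 depleted libraries against 2 controls), the same 9 genes passed, as did 8255 of all 21175 genes tested, with Trib3 at 4.58, Chac1 at 4.79 and Herpud1 at 1.76.

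**Figure D2:**
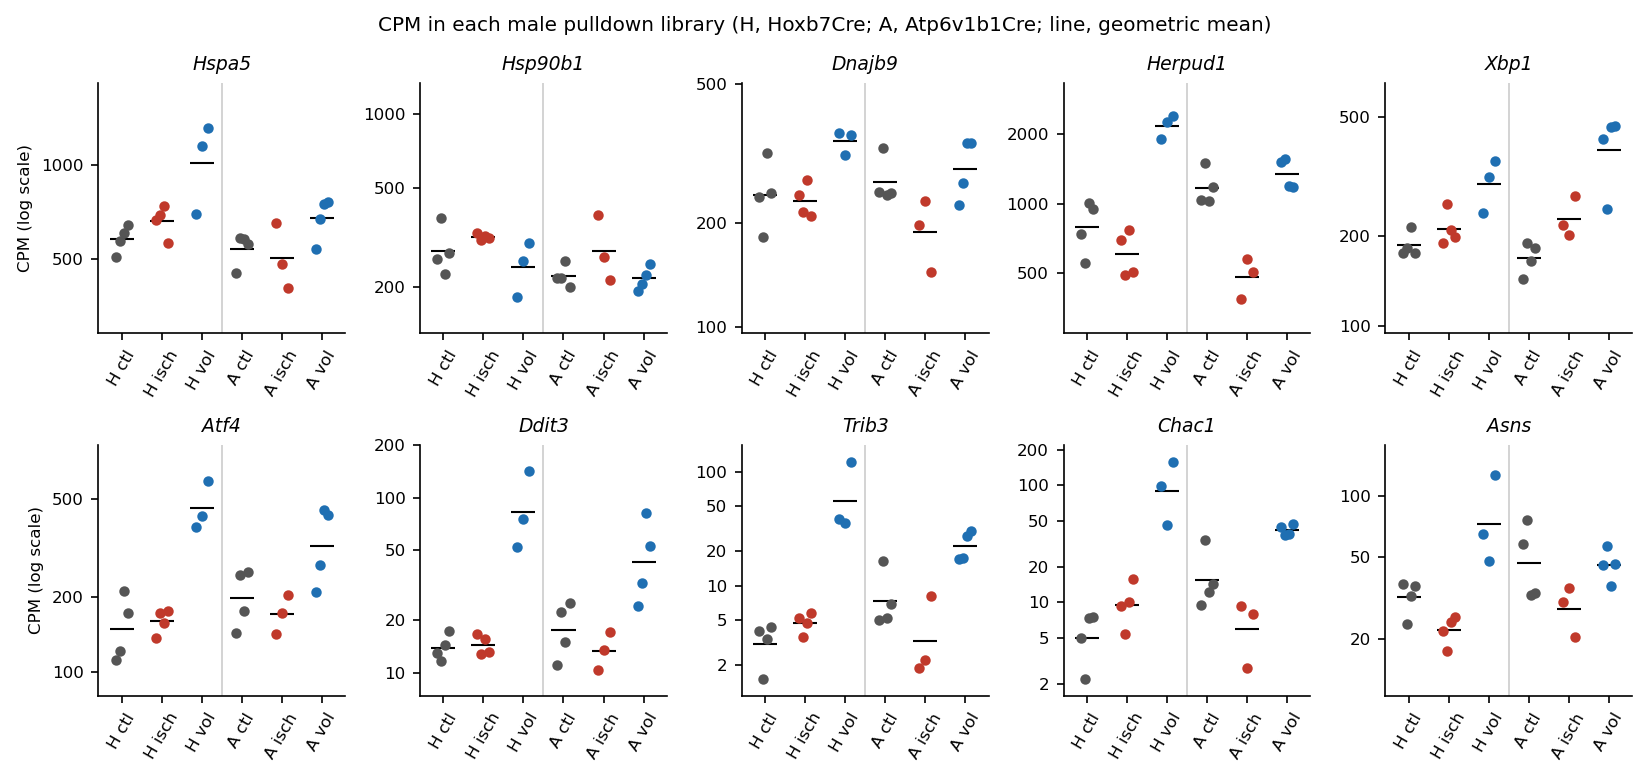
CPM (log axis) of the 10 genes in each of the 22 male pulldown libraries of 5.5 months, by control, ischemia and volume depletion, for Hoxb7Cre (H) and Atp6v1b1Cre (A), with a line for the geometric mean. After volume depletion every library of both drivers lies above its controls for Trib3 and Chac1, by little over control replicate 9 in Atp6v1b1Cre.

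Markers of other cells moved in the same male Hoxb7Cre libraries. Collecting duct and intercalated cell markers were lower for 6 of 10 genes, with summed levels of 5922 to 8319.9 CPM in controls and 3862 to 4338 CPM after depletion. Thick ascending limb markers were lower for 3 of 4 (1709 to 2865 against 874 to 1007 CPM) and fat markers for 5 of 6 (42.2 to 115 against 18.0 to 30.4 CPM). Endothelium markers were higher for 2 of 5 (107.6 to 217 against 245 to 356 CPM), fibroblast markers for 2 of 5 (36.7 to 79.6 against 92.4 to 128 CPM) and podocyte markers for 1 of 4 (151 to 182 against 226 to 274 CPM), and these summed levels did not overlap either. Macrophage markers were higher for 3 of 6 and lower for 1 (56.8 to 75.2 against 57.2 to 68.2 CPM). Of 6 plasma cell markers, 1 passed as higher, Prdm1 (log2 2.66), which other cells also express. The summed levels of the 6 did not overlap (44.8 to 52.8 against 55.1 to 62.7 CPM). Sdc1 did not overlap either (27.9 to 34.6 against 35.6 to 39.1 CPM). Irf4 (4.08 to 6.07 against 5.17 to 8.96 CPM) and Mzb1 (4.99 to 8.30 against 5.79 to 6.54 CPM) overlapped. Jchain overlapped too (2.34 to 5.62 against 1.23 to 3.42 CPM), and Tnfrsf17 was under 1 CPM in both groups. Injured tubule markers passed for 0 of 4. The part of these cells in the rise of the stress genes was not tested.

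In male Atp6v1b1Cre pulldowns (4 libraries against 4), 5 of the 10 genes rose after volume depletion, Xbp1, Atf4, Ddit3, Trib3 and Chac1, with 8.11% of all genes tested higher and 6.47% lower. Xbp1 was at 144, 190.3, 166 and 182 CPM in control replicates 6, 9, 10 and 11 and 423, 247, 464 and 468 CPM in depleted replicates 1, 2, 6 and 7, in this order also below. Every depleted library exceeded every control, and this was the firmest of the rises, log2 1.25 ± 0.18 (SE), 2.37-fold, adjusted p = 0.000103. Atf4 was at 144, 245, 176 and 252 CPM in the controls and 209, 270.4, 449 and 429 CPM after volume depletion. Depleted replicate 1 lay among the controls and the rise was log2 0.75 ± 0.24 (SE), 1.68-fold, adjusted p = 0.0386. Ddit3 was at 11.1, 22.2, 15.1 and 25.1 CPM in the controls and 24.1, 32.8, 82.4 and 52.8 CPM after volume depletion. Replicate 1 again overlapped the controls, and the rise was log2 1.39 ± 0.33 (SE), 2.63-fold, adjusted p = 0.0065. Trib3 was at 4.98, 16.5, 5.22 and 6.93 CPM in the controls and 17.2, 17.5, 27.4 and 30.3 CPM after volume depletion. The lowest depleted library was just above control replicate 9, which was the highest control, and the rise was log2 1.48 ± 0.46 (SE), 2.78-fold, adjusted p = 0.0314. Chac1 was at 9.46, 33.9, 12.4 and 14.4 CPM in the controls and 44.3, 37.9, 38.6 and 46.9 CPM after volume depletion. The groups did not overlap, control replicate 9 was again the highest control, and the rise was log2 1.28 ± 0.42 (SE), 2.43-fold, adjusted p = 0.0442. The chaperones, Herpud1 and Asns did not pass. Their log2 changes were 0.34 for Hspa5, -0.010 for Hsp90b1, 0.15 for Dnajb9, 0.22 for Herpud1 and -0.092 for Asns. The intervals were -0.0013 to 0.69, -0.35 to 0.33, -0.18 to 0.48, -0.16 to 0.60 and -0.63 to 0.44 in the same order.

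These Atp6v1b1Cre rises rested on some libraries. Without control replicate 6 or 10 or depleted replicate 6 or 7, 2 of the 10 genes passed, Xbp1 and Ddit3, and without control replicate 11, 3 did, these and Atf4. Chac1 also missed the threshold without depleted replicate 1 or 2, Hoxb7Cre control replicate 2 or Hoxb7Cre ischemia replicate 4 or 6, and its change ran from 1.07 to 1.81 with any 1 of the 22 libraries left out. Within library run A (2 depleted against 2 control libraries), Xbp1 alone of the 10 passed, beside 1601 of all 21175 genes tested (1.00), with Ddit3 at 0.78, Trib3 at 0.70 and Chac1 at 0.93. In run B alone (2 against 2), 7 of the 10 passed, beside 5301 of all 21175 genes tested: Hspa5, Dnajb9, Xbp1, Atf4, Ddit3, Trib3 and Chac1, with Ddit3 at 1.75, Trib3 at 2.25 and Chac1 at 1.68. Of the collecting duct and intercalated cell markers, 2 of 10 were lower, Foxi1 (156 to 209 CPM in controls against 37.03 to 155 CPM) and Atp6v0d2 (86.8 to 124 against 39.3 to 60.4 CPM), and Aqp2 was higher. Slc26a4 (346 to 505 against 260.4 to 334 CPM) and Slc4a1 (14.8 to 46.6 against 9.74 to 13.6 CPM) did not overlap between groups either and did not pass. The summed level of the 10 was 3679.6 to 5119 CPM in controls and 2965 to 4136 CPM after depletion. Fat markers were lower for 3 of 6 genes (summed 33.2 to 95.6 CPM in controls against 12.5 to 29.8 CPM), proximal tubule markers for 3 of 8 and macrophage markers for 2 of 6, and their part in these rises was not tested.

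The difference between the drivers was tested itself, as the volume depletion effect in Atp6v1b1Cre minus that in Hoxb7Cre. In males, Herpud1 (-1.21 ± 0.28 SE, adjusted p = 0.0157), Trib3 (-2.84 ± 0.67, adjusted p = 0.0168), Chac1 (-2.91 ± 0.63, adjusted p = 0.00971) and Asns (-1.40 ± 0.40, adjusted p = 0.0479) changed less in Atp6v1b1Cre, 4 of 10 genes against 4.20% of all genes tested. Xbp1 pointed the other way (0.54 ± 0.26) and did not pass. These calls rested on some libraries. Without Hoxb7Cre depleted replicate 7 Chac1 alone passed, with Trib3 at -2.01, and without Atp6v1b1Cre control replicate 9 Herpud1 and Chac1 did. Asns passed when 1 of 8 libraries was left out and not when 1 of the other 14 was. Within run A, where all Hoxb7Cre injury libraries lie, 7 of 10 passed, beside 3103 of all 21175 genes tested, the 4 above with Dnajb9 (-0.97), Atf4 (-1.70) and Ddit3 (-2.12). In females alone 0 of 10 passed, as did 0 of all 21175 genes tested. The differences there were positive: 0.33 for Herpud1, 1.88 for Trib3, 1.83 for Chac1 and 0.17 for Asns. With both sexes in 1 fit 0 of 10 passed, beside 75 of all 21175 genes tested. Without the 3 female Hoxb7Cre libraries that stood apart 0 passed too, beside 145, with Trib3 at -1.03 and Chac1 at -1.06.

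**Figure D3:**
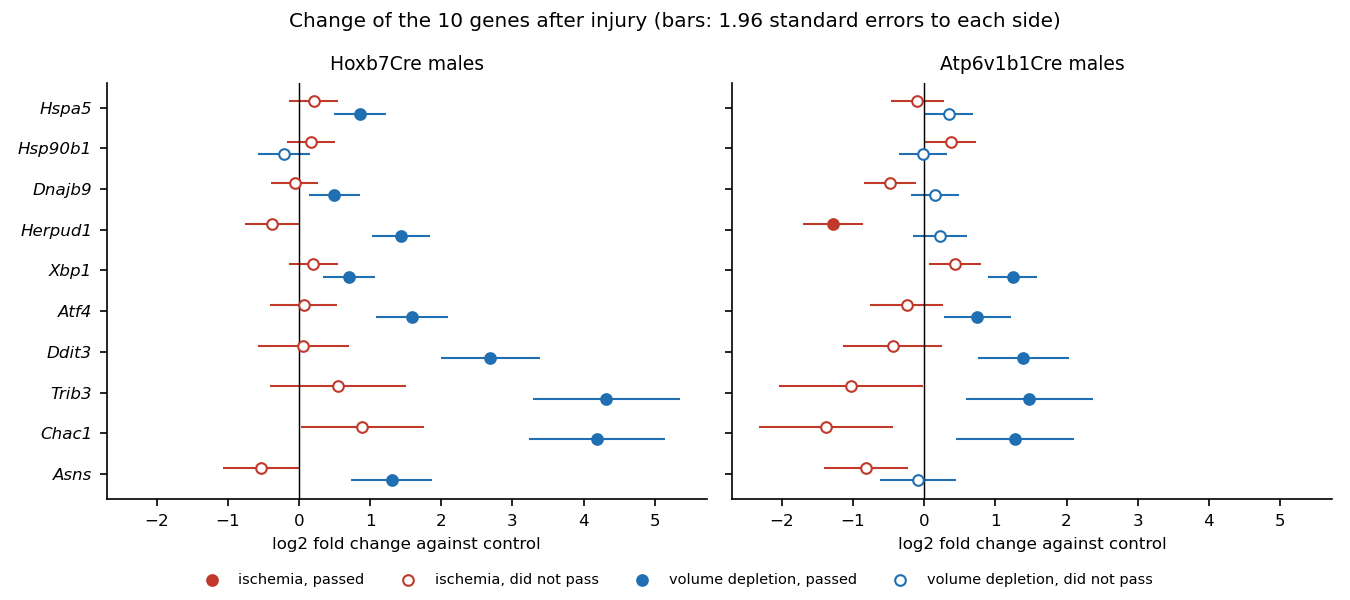
Log2 fold change against control of the 10 genes after ischemia and after volume depletion in males, for Hoxb7Cre (left) and Atp6v1b1Cre (right), with bars of 1.96 standard errors to each side, filled points for genes that passed and open points for those that did not. After volume depletion 9 genes in Hoxb7Cre and 5 in Atp6v1b1Cre are filled, and after ischemia 0 and 1.

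After ischemia, few of the 10 genes passed. In male Hoxb7Cre pulldowns (4 libraries against 4) 0 of 10 passed with edgeR, 0 had an unadjusted p under 0.05, 0 passed with DESeq2 and 0 within run A (beside 2318 of all 21175 genes), while 3.34% of all genes tested were higher and 2.79% lower. The log2 changes ran from -0.53 for Asns to 0.89 for Chac1. Chac1 was at 5.01, 2.23, 7.36 and 7.54 CPM in controls and 9.30, 5.34, 10.1 and 15.9 CPM after ischemia. The ranges overlapped, and the interval of 1.96 SE around its change was 0.024 to 1.76. Such intervals are narrower than the quasi-likelihood test implies, and that test gave Chac1 an unadjusted p of 0.056. The upper ends of the intervals of Hspa5 (-0.14 to 0.55) and Xbp1 (-0.14 to 0.54) stayed under a 2-fold change. All 4 injured tubule markers were higher in these libraries (median 3.02), with summed levels of 322 to 429 CPM in controls and 549 to 3502 CPM after ischemia.

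In male Atp6v1b1Cre pulldowns (3 libraries against 4), Herpud1 fell and was the 1 gene of the 10 that passed, with 3.77% of all genes tested higher and 4.74% lower. It was at 1037, 1497, 1022 and 1178 CPM in the controls and 386, 574 and 508 CPM after ischemia. Every ischemic library was below every control, and the change was log2 -1.28 ± 0.22 (SE), 0.411-fold, adjusted p = 0.00125. Dnajb9 (239.9 to 328 CPM in controls, 144 to 231 CPM after ischemia) and Chac1 (9.46 to 33.9 and 2.77 to 9.36 CPM) also had ischemic libraries below every control, and Xbp1 (144 to 190.3 and 202 to 273 CPM) had them above. These 3 did not pass, and all had an unadjusted p under 0.05, as had Asns, with log2 changes of -0.48 ± 0.18, -1.38 ± 0.48 and 0.43 ± 0.19. Within run A (2 ischemic against 2 control libraries) Herpud1 (-1.41), Trib3 (-2.39) and Asns (-1.05) passed as lower, beside 2761 of all 21175 genes tested. In females, Herpud1 was at 1636, 1064, 1502 and 1025 CPM in controls and 584, 432 and 535 CPM after ischemia, and it passed there too (-1.36, adjusted p = 0.0246). With both sexes in 1 fit, Hsp90b1 (0.68) and Xbp1 (0.50) passed as higher and Dnajb9 (-0.57) and Herpud1 (-1.32) as lower, and in Hoxb7Cre Herpud1 (-0.75) passed as lower. Injured tubule markers rose for 4 of 4 genes (312 to 462 CPM in controls against 741 to 4159 CPM) and proximal markers fell for 3 of 8, and their part in these values was not tested. Of the difference between drivers, 1 gene passed, Chac1 (-2.27 ± 0.65, adjusted p = 0.0352), against 7.79% of all genes tested. In females alone that difference was 1.33 and did not pass, and 0 of all 21175 genes tested did. Within run A in males Herpud1, Trib3 and Chac1 (-3.29) passed, beside 3231 of all 21175 genes. In males Chac1 did not pass without Hoxb7Cre ischemia replicate 4, 6 or 7, Hoxb7Cre control replicate 2 or 3, Atp6v1b1Cre ischemia replicate 1 or 4, or Atp6v1b1Cre control replicate 9, with values from -2.55 to -1.74, and 2 genes passed without Atp6v1b1Cre ischemia replicate 5 or Hoxb7Cre control replicate 4 or 5.

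Set against each other, the injuries differed for most of the 10 genes. These comparisons share the injured libraries with those above and are not separate support. In male Hoxb7Cre pulldowns 9 genes were higher after volume depletion than after ischemia, all but Hsp90b1, where 16.4% of all genes tested were higher and 16.9% lower. Asns differed by 1.83 ± 0.30 here, with ischemic libraries at 21.7, 17.4, 24.3 and 25.5 CPM. Herpud1 differed by 1.81 ± 0.21. All these libraries belong to run A. In Atp6v1b1Cre 7 genes were higher, 8 with the run as a covariate, where 15.0% were higher and 14.3% lower, and Hspa5 (0.44 ± 0.19), Hsp90b1 (-0.38 ± 0.18) and Asns (0.73 ± 0.30) did not pass. Herpud1, at 386, 574 and 508 CPM after ischemia and 1511, 1556, 1196 and 1177 CPM after depletion, differed by 1.50 ± 0.22 (adjusted p = 3.32e-05), and no library of one group reached the other.

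In female Hoxb7Cre mice of 5.5 months, the values followed the split among the depleted libraries only in part. Chac1 was at 4.27, 20.8, 16.8 and 14.1 CPM in female controls and 3.43, 24.8, 6.95 and 82.4 CPM after depletion (replicates 1, 2, 3 and 5). Trib3 was at 3.41, 12.3, 4.74 and 6.52 CPM in female controls and 1.71, 24.2, 6.11 and 62.7 CPM after depletion (replicates 1, 2, 3 and 5). Ddit3 was at 10.1, 69.3, 28.1 and 28.9 CPM in female controls and 13.0, 47.1, 17.9 and 104.7 CPM after depletion (replicates 1, 2, 3 and 5). Replicate 5 was the highest of the 4 for these genes, replicate 2 came next, and replicates 1 and 3 lay within or below the controls. Replicate 2, which also stood apart, lay above every female control for Chac1 and Trib3 and within the controls for Ddit3. Control replicate 6 was the highest female control for all 3 genes. Herpud1 was at 1126, 763, 1323 and 1294 CPM in female controls and 693, 1529, 773 and 1636 CPM after depletion (replicates 1, 2, 3 and 5). Replicate 5 was the highest there as well, followed by replicate 2, and both lay above every female control. Hspa5, by contrast, was highest in replicate 2 (1382 CPM) and at 788 CPM in replicate 5. In females alone 0 of 10 genes passed for volume depletion in Hoxb7Cre, beside 23 of all 21175 genes tested.

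The sex difference of the volume depletion effect in Hoxb7Cre passed for Herpud1 (-1.40 ± 0.35 SE, female minus male), Atf4 (-1.59 ± 0.51), Ddit3 (-2.28 ± 0.69) and Chac1 (-3.12 ± 0.94), 4 of 10 against 16.0% of all genes tested. Without the 3 libraries that stood apart, which leaves replicate 5 as the only depleted female, Chac1 was at -1.62. With both sexes in 1 fit, 7 of 10 genes passed for volume depletion with those libraries, beside 2704 of all 21175 genes tested. Without them 8 of 10 did, beside 6894. After ischemia the sex difference in Hoxb7Cre passed for Chac1 (-3.71 ± 1.03, adjusted p = 0.0211), 1 of 10 against 10.5%. Chac1 was at 3.10, 1.65 and 1.24 CPM in ischemic females, below every female control of 5.5 months, and at 9.30, 5.34, 10.1 and 15.9 CPM in ischemic males. In Atp6v1b1Cre 0 of 10 passed for either injury with edgeR, as did 0% of all genes tested for ischemia and 0% for depletion. Over all genes, 676 and 1756 had an unadjusted p under 0.05 and 1 and 45 passed with DESeq2. Of the 10 genes, 0 had an unadjusted p under 0.05 for ischemia and 1, Trib3 (2.23 ± 0.93), had one for depletion, with 0 of 10 passing with DESeq2 in both.

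Female Atp6v1b1Cre mice alone gave the same 5 genes as the males after volume depletion, beside 3815 of all 21175 genes tested: Xbp1 (1.41), Atf4 (1.41), Ddit3 (2.64), Trib3 (3.69) and Chac1 (2.90). Trib3 was at 5.58, 1.79, 6.62 and 3.35 CPM in female controls and 47.97, 16.1 and 103.9 CPM after depletion. Every depleted female was above every female control for all 5 genes, and the 3 depleted libraries spread widely. The share of all genes tested that lay apart in this way was not counted. Among the 42 controls of both sexes, Dnajb9 (0.28 ± 0.070, adjusted p = 0.00174) and Herpud1 (0.21 ± 0.082, adjusted p = 0.0469) were higher in females, 2 of 10 genes against 30.3% of all genes tested that differed by sex.

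**Figure D4:**
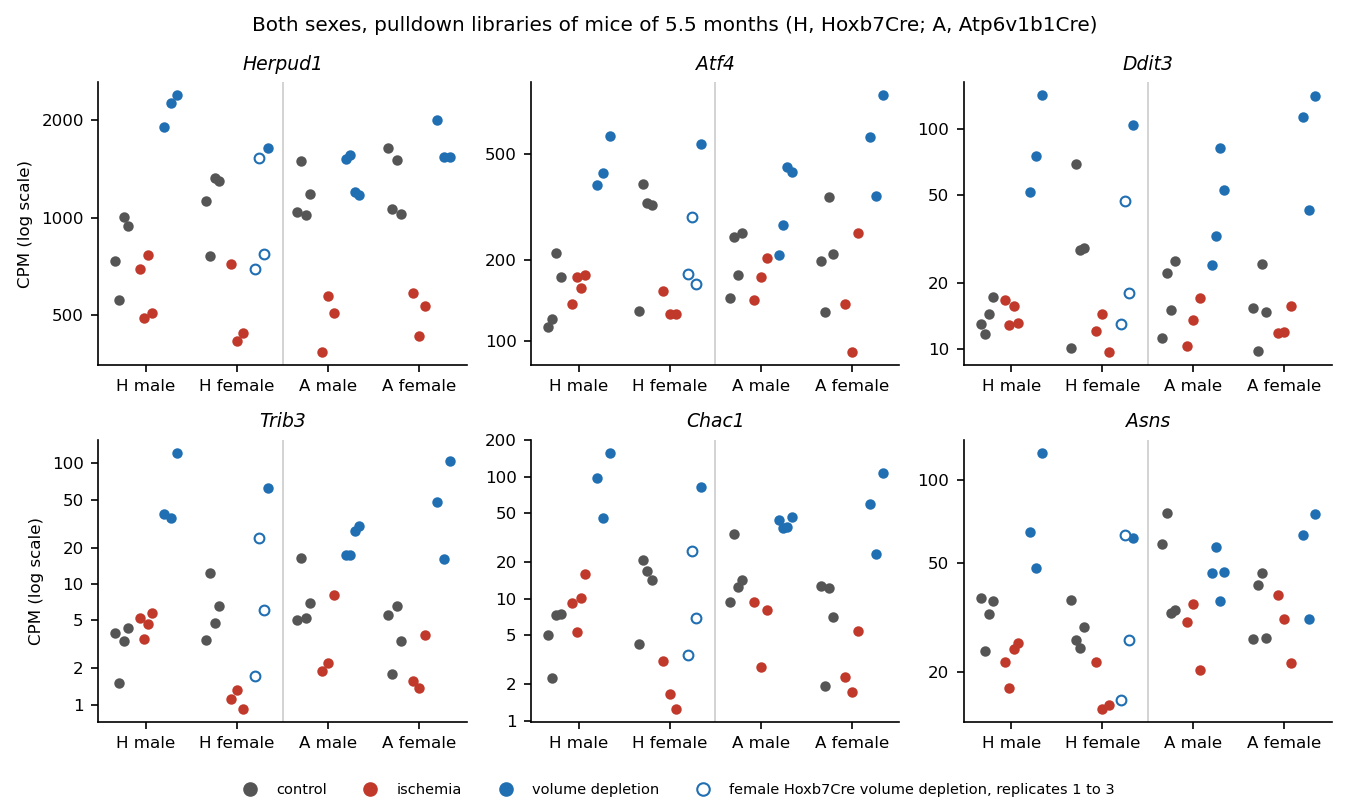
CPM (log axis) of 6 of the genes in pulldown libraries of 5.5 months, by driver (H, Hoxb7Cre; A, Atp6v1b1Cre) and sex, colored by condition, with open circles for the 3 female Hoxb7Cre volume depletion libraries that stood apart. The open circles lie at 3.43 to 24.8 CPM for Chac1 and 13.0 to 47.1 CPM for Ddit3, while the depleted Hoxb7Cre males lie above all their controls for both genes.

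Other genes of these pathways were described with 7 lists. After volume depletion in male Hoxb7Cre pulldowns, where 17.9% of all genes tested were higher and 17.6% lower, 8 of 15 ATF4-linked stress genes were higher and 0 lower (median 0.96), led by Fgf21 (3.81 ± 0.72, adjusted p = 0.000272), Atf3 (3.81 ± 0.51, adjusted p = 5.48e-06) and Ddit4 (3.36 ± 0.53, adjusted p = 3.98e-05). Fgf21 is a fasting hormone and Ddit4 an inhibitor of mTORC1. Of 10 amino acid transporters 5 were higher and 1 lower, with Slc7a5 1.78, Slc43a1 1.76, Slc3a2 1.46 and Slc7a3 -1.19. Of 16 genes of amino acid, serine and one-carbon synthesis 7 were higher and 1 lower, with Got1 2.28, Pycr1 1.49 and Shmt1 -0.58. In the chaperone list 1 of 19 was higher, Creld2 (1.23 ± 0.14, adjusted p = 1.2e-06), and 2 were lower, Hspa13 -0.77 and Canx -0.48. Its median was -0.16.

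The remaining lists were mixed in those libraries, and several of their counts lie near these shares over all genes. Of 18 genes of ER-associated degradation and translocation 6 were higher, led by Derl3 1.42 and Ube2j1 0.66, and 2 lower. Among 14 sensors and phosphatase subunits 4 were higher, with Ppp1r15a (2.02 ± 0.39, adjusted p = 0.000346), Impact (1.71 ± 0.16, adjusted p = 9e-08) and Ppp1r15b 0.79, and 4 lower, with Mbtps2 -0.80 and Eif2ak2 -0.54. Ppp1r15a (GADD34) and Ppp1r15b direct removal of the phosphate that PERK and GCN2 add, and IMPACT restrains GCN2. Of 20 cytosolic aminoacyl-tRNA synthetases 5 were higher, with Aars 0.89, Cars 0.63 and Yars 0.55, and 4 lower, with Dars -0.98, Wars -0.67 and Farsb -0.66.

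In male Atp6v1b1Cre pulldowns, where volume depletion left 8.11% of all genes tested higher and 6.47% lower, 4 of 15 ATF4-linked genes were higher and 0 lower (median 0.54), led by Fgf21 (3.62 ± 0.71, adjusted p = 0.00186), Atf3 (2.07 ± 0.46, adjusted p = 0.00425) and Cebpb (2.06 ± 0.46, adjusted p = 0.00431). Of 14 sensors and phosphatase subunits 3 were higher, again Ppp1r15a 1.44, Impact 0.58 and Ppp1r15b 0.38, and 2 lower, Mbtps2 -0.49 and Eif2ak1 -0.35. Of 10 transporters 2 were higher and 0 lower, and of 16 synthesis genes 2 were higher and 1 lower (Aldh1l2 -0.88). In the other lists few genes passed and the shares were at or below those over all genes: 1 higher (Farsa 0.38) and 1 lower (Dars -0.52) of 20 synthetases, 1 higher (Creld2 0.46) and 0 lower of 19 chaperones, and 0 of 18 degradation genes in either direction. The driver difference passed for Creld2 (-0.77), Impact (-1.14), Sesn2 (-1.47), Jdp2 (-1.40), Cbs (-1.24), Shmt2 (-0.91) and Slc3a2 (-0.96), all negative (Atp6v1b1Cre minus Hoxb7Cre). After ischemia, where 3.34% of all genes tested were higher and 2.79% lower in Hoxb7Cre and 3.77% and 4.74% in Atp6v1b1Cre, at most 2 genes of a list passed in 1 direction in Hoxb7Cre, with Eif2ak2 0.47 and Aldh1l2 0.58 higher and Slc1a5 -0.97, Glul -0.79, Gars -0.47 and Vars -0.39 lower. In Atp6v1b1Cre 3 of 10 transporters were lower, Slc43a1 -1.07, Slc38a2 -0.80 and Slc7a1 -0.54, as were Cbs -1.69, Glul -1.41, Sesn2 -1.24, Ppp1r15b -0.66 and Eif2ak3 -0.61 (PERK), while Nupr1 1.20, Sec61b 0.67 and Kars 0.35 were higher.

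**Figure D5:**
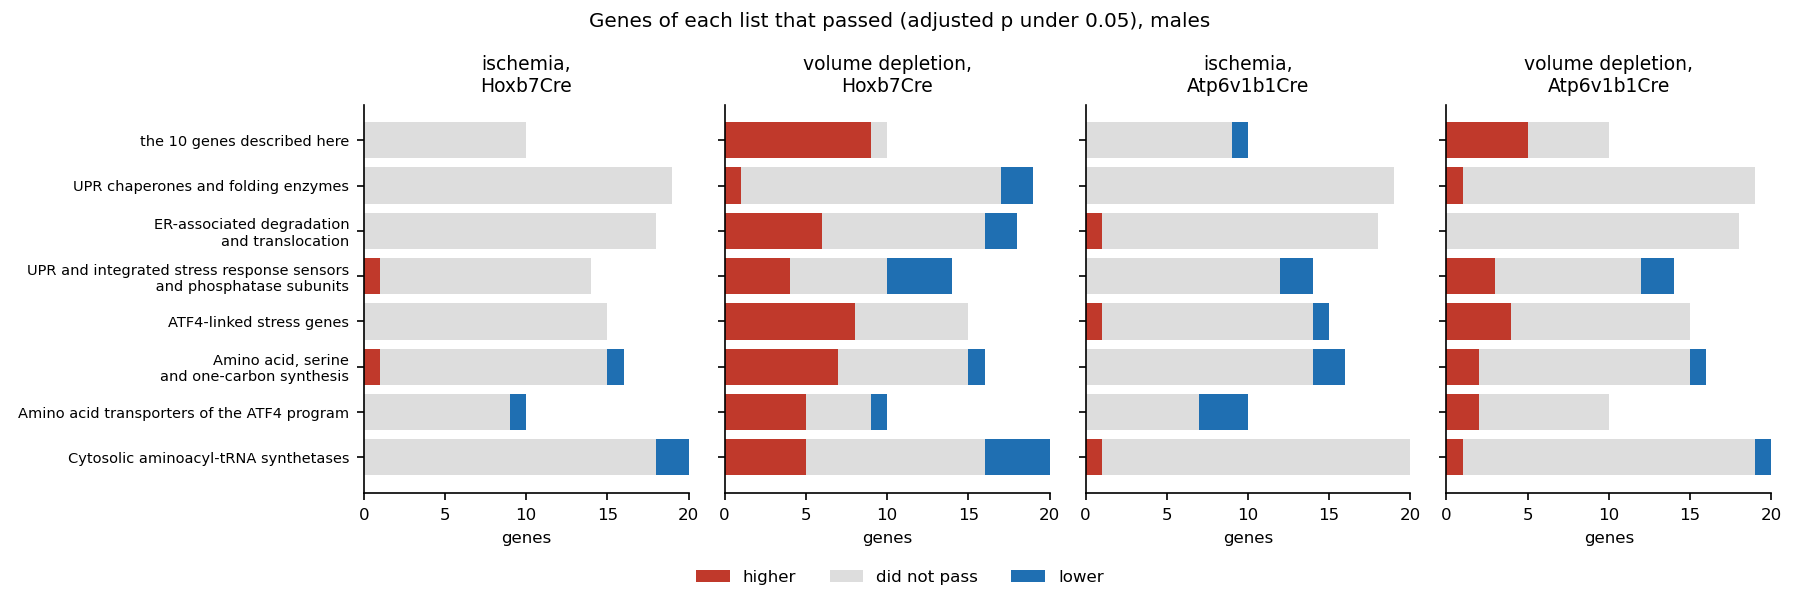
Number of genes (horizontal axis) of the 10 described here and of 7 pathway lists that passed as higher (red) or lower (blue) or did not pass (gray), in males, for each injury and driver. The longest red bars, after volume depletion in Hoxb7Cre, are those of the 10 genes (9), the ATF4-linked list (8) and the synthesis list (7).

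Across the 48 pulldown libraries, the 10 genes did not move as 1 block. Pearson's r of log2 CPM was 0.96 for Trib3 and Chac1 and 0.94 for Atf4 and Ddit3, and 0.71 and 0.83 for deviations from the group means of the 22 males. Hspa5 and Hsp90b1 had an r of 0.40 over all pulldowns and 0.68 within groups. Hsp90b1 had negative values over all pulldowns with Herpud1 (-0.61) and Chac1 (-0.55), which were -0.42 and -0.11 within groups. Among 9687 genes of at least 10 mean CPM, those most like Hspa5 were Creld2 (0.83), Manf (0.80), Slc35b1 (0.79), Sbds (0.76) and Cnn3 (0.76). Those most like Asns were Mthfd2 (0.91), Aars (0.88), Pck2 (0.86), Yars (0.84) and Atf5 (0.79). Those most like Chac1 were Plk3 (0.93), Desi2 (0.93), Impact (0.91), Pim3 (0.91) and Ets2 (0.91). These values describe libraries that share conditions and sequencing runs.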

How the data were processed

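RNA of 69 mouse kidney samples (48 pulldowns of thiouracil-labeled RNA and 21 of total RNA) was made into poly(A) libraries and sequenced on an Illumina HiSeq instrument. The authors converted base calls with CASAVA 1.8.2, trimmed reads with Trimmomatic 0.36, aligned them to mm10 with STAR 2.5.3a and counted them per gene with HTSeq 0.6.1p2; the deposited values are raw counts, and the annotation behind the symbols is not given in the sources used here.

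Counts were tested with edgeR 4.0.16 (limma 3.58.1, R 4.3.3): TMM scaling, all genes with 2 or more counts in the 69 libraries together, the quasi-likelihood test and Benjamini-Hochberg adjustment over 21175 genes. The fits covered 22 male pulldowns of 5.5 months (injuries and drivers), 42 controls with sex as a covariate (baseline) and 43 pulldowns of 5.5 months (sex differences). The SE of a log2 change is its size divided by the square root of F, and intervals are 1.96 SE to each side. That is a normal quantile, so the intervals are narrower than the quasi-likelihood test implies. CPM per kilobase used merged exons of GENCODE M21, log2 CPM a prior count of 2, and RefSeq promoter windows GRCm38.p6. DESeq2 1.42.0 was an alternative, with others of scaling, filter, samples and library run; fits within 1 library run and without the 3 libraries that stood apart were chosen after seeing the data. Groups came from the labels. No 2 replicates were near-identical (121 pairs; lowest chi-square per gene 10.2). On simulated counts for volume depletion in Hoxb7Cre (21175 genes), 67 of 100 genes changed 2-fold and 94 of 100 changed 4-fold were recovered, with 3 false calls. The counts were drawn from the fitted model, with all other genes left unchanged. In the data 7521 genes passed for this comparison, so recovery and false calls there may differ.

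The 10 genes and the lists were chosen with earlier results of these data known. Named genes were the 10 members, the list genes that passed with the largest changes, and the 5 genes of most similar pattern for Hspa5, Asns and Chac1. Plots were drawn with Python 3.11.15, pandas 2.3.3 and matplotlib 3.10.9.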

Additional observations from a re-analysis of the deposited data

Results flagged for a closer look

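In 90 combinations of gene and group with 4 to 10 libraries, 7 had a library far from the others by Dixon's test, which chance alone gives in about 1 of 20. Hspa5 was at 1382 CPM in female Hoxb7Cre volume depletion replicate 2 (next 788) and at 782 CPM in female Atp6v1b1Cre control replicate 12 (next 544). Control replicate 9 of male Atp6v1b1Cre was far above the rest for Dnajb9 (328 CPM, next 244) and Trib3 (16.5 CPM, next 6.93). Xbp1 was at 214 CPM in male Hoxb7Cre control replicate 4 (next 182). In total RNA, Ddit3 was at 68.4 CPM in female replicate 12 (next 36.0) and Trib3 at 9.67 CPM in male replicate 7 (next 5.53).

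By a test of the difference itself, the volume depletion effect in males was smaller in Atp6v1b1Cre than in Hoxb7Cre for Herpud1 (log2 difference -1.21), Trib3 (-2.84), Chac1 (-2.91) and Asns (-1.40). The ischemia effect on Chac1 differed by -2.27, with 0.89 in Hoxb7Cre and -1.38 in Atp6v1b1Cre. In females alone all these driver differences were positive and did not pass. In Hoxb7Cre the volume depletion effect was smaller in females than in males for Herpud1 (-1.40), Atf4 (-1.59), Ddit3 (-2.28) and Chac1 (-3.12). Of the 4 depleted female libraries behind this, 3 were those that stood apart. The ischemia effect on Chac1 differed between the sexes by -3.71, with ischemic females at 1.24 to 3.10 CPM, below every female control of 5.5 months, and ischemic males overlapping their controls. This too was 1 of 10 genes, near the 10.5% of all genes tested that passed.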

How the results depend on the processing

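With females only, 1 of the 10 genes (Hsp90b1) passed for ischemia in Hoxb7Cre, beside 665 of all 21175 genes tested. Volume depletion there gave 0 of the 10, beside 23 of all genes. Volume depletion against ischemia in Hoxb7Cre gave 3, beside 800, and either driver difference 0, beside 0 of all genes. Atp6v1b1Cre pulldowns against total RNA gave 4, beside 10447. With males only 2 passed between the drivers in controls, beside 2214. With both sexes in 1 fit, 1 passed for ischemia in Hoxb7Cre, beside 625 of all genes, and 4 in Atp6v1b1Cre, beside 3991. The driver differences gave 0 each, beside 585 of all genes for ischemia and 75 for volume depletion. Without the 3 female libraries that stood apart, that of volume depletion also gave 0, beside 145. With 25 males, ischemia in Atp6v1b1Cre gave 2, beside 2446, and its driver difference 0, beside 1904. Controls of 5.5 months alone gave 1 for sex, beside 5442. DESeq2 gave 3 for ischemia in Atp6v1b1Cre, beside 2905 of 15992 genes with an adjusted p, and 2 for its driver difference, beside 2864 of 14782. It gave 1 between drivers in controls, beside 2399 of 18590, and 3 for the sex difference of ischemia in Hoxb7Cre, beside 3272 of 15387. For the last 2 comparisons filterByExpr gave 1, beside 2093 of 15631, and 2, beside 2692 of 16366. The library run as a covariate gave 2 for ischemia in Atp6v1b1Cre, beside 2897 of all 21175 genes, and 2 for its driver difference, beside 3123. It gave 2 for the sex difference of ischemia in Hoxb7Cre, beside 2258. Run A alone gave 3 for ischemia in Atp6v1b1Cre, beside 2761, and 3 for its driver difference, beside 3231. For volume depletion, run A gave 1 in Atp6v1b1Cre, beside 1601, and 7 for the driver difference, beside 3103. Run B alone gave 7 for volume depletion in Atp6v1b1Cre, beside 5301. Requiring a 2-fold change left 4 for volume depletion against ischemia in Atp6v1b1Cre, 1 and 2 for pulldowns against total RNA (Hoxb7Cre, Atp6v1b1Cre) and 0 for sex in controls. Shares over all genes under this rule are not given here.

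Signs turned for Hsp90b1 after volume depletion in Hoxb7Cre (0.034 with both sexes, 0.34 in females), and in Atp6v1b1Cre for Asns (0.28, 0.69, and 0.13 with 25 males), Hsp90b1 (0.035 with 25 males) and Dnajb9 (-0.24 in run A), with Hsp90b1 at 0.063 and Asns at 0.32 in run B; in females the driver differences were 1.33 (Chac1, ischemia) and 0.33, 1.88, 1.83 and 0.17 (Herpud1, Trib3, Chac1, Asns, volume depletion). Leaving out 1 library, 0 passed for ischemia and 8 to 9 for volume depletion in Hoxb7Cre, 1 to 2 and 2 to 5 in Atp6v1b1Cre, 0 to 2 and 1 to 4 for the driver differences, 6 to 9 and 6 to 8 for volume depletion against ischemia. Counts over all genes in these fits are not given here. Hsp90b1 in Atp6v1b1Cre ran from -0.088 to 0.058 and Asns from -0.25 to 0.17. Of 572 single-gene values without 1 library 517 kept their direction and side of the threshold, as did 315 of 382 under the other alternatives, and the causes of the changes were not tested.

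The labels do not say whether replicate numbers pair the samples. Of 20 same-numbered pairs, 5 had a correlation over 0.1 (mean 0.00229), as had 43 of 181 pairs with other numbers (mean -0.000317). So few same-numbered pairs cannot exclude pairing, and the samples were treated as unpaired. With the number as a replicate block, 6 genes passed for volume depletion in Hoxb7Cre, beside 4437 of all 21175 genes tested. Ischemia in Atp6v1b1Cre gave 0, beside 0 of all genes. Both driver differences gave 0, beside 0 of all genes for ischemia and 53 for volume depletion. Both sex differences in Hoxb7Cre gave 0, beside 0 and 1 in the same order. Sex in controls gave 0, beside 3164. Low counts limit Trib3 and Chac1 most, with as few as 17 and 23 counts in a library.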
